A study of Rattus norvegicus with 39 samples.

Results

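The methionine cycle of the liver and a set of small-molecule methyltransferases were followed in rats 48 h after treatment with 1 of 6 compounds. The 9 genes were Mat1a, Mat2a, Gnmt, Pemt, Nnmt, Inmt, Ahcy, Bhmt and Cbs. They were chosen by symbol, with earlier results of these data known. All 9 were on the array, as 9 of the 14217 genes and 11 of the 20826 probe sets that carry 1 gene symbol. Mat2a had 3 probe sets and each other gene had 1.

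Labelled RNA from the left lateral liver lobe of rats aged 5 to 6 weeks was hybridised to Affymetrix rat arrays, 1 array per animal as the labels number them. The 6 compound groups held 5 rats each. By mouth, rats received 125 mg/kg ANIT in corn oil, 15 mg/kg DMN or 15 mg/kg DNP in water, or 1000 mg/kg Roziglitazone (the spelling of the labels) in methylcellulose. Caerulein (50 µg/kg) and NMF (1000 mg/kg) were given i.p. in saline. The 9 control rats were left untreated, without vehicle: a comparison with them takes in the compound together with its vehicle and route, and these cannot be told apart. Strain and sex are not given in the sources used here. ANIT, DMN and NMF are grouped here as liver toxicants, from general knowledge of these compounds and not from the labels. Values are log2 intensities of a probe set and can be compared between arrays but not between probe sets.

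Methionine adenosyltransferases turn methionine into S-adenosylmethionine, the methyl donor of the cell. Methyltransferases hand its methyl group to glycine, phospholipid, nicotinamide, indoles and other acceptors and leave S-adenosylhomocysteine, which is split to homocysteine. Homocysteine is then either methylated back to methionine or passed on to cysteine and glutathione by transsulfuration. The liver carries out most of this traffic in the body.

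Some arrays call for care. ANIT 3 correlated better with the DMN mean (r = 0.705 across genes, as deviations from the overall mean) than with the rest of its own group (0.301), and Roziglitazone 2 correlated with the ANIT mean at 0.802 but with its own group at -0.303. DMN 2 correlated with its own group at 0.00344. In all, 15 of the 39 arrays correlated best with their own group. ANIT 3, DMN 2 and Roziglitazone 2 are called the doubted arrays below. On 6 further arrays (DMN 3, DNP 1, NMF 3, Roziglitazone 1, control 4 and control 5) the control probe set at the 5′ end of GAPDH read 6.34 to 7.42, against 10.49 to 12.93 on the other 33, and on DNP 1, Roziglitazone 1 and control 5 the 3′ probe set was low too (9.99, 10.84 and 8.09); a low 5′ signal is a usual sign of degraded or incompletely copied RNA. Of the 6 arrays low in 5′ signal, Roziglitazone 1 (-0.221), control 5 (-0.0860) and DNP 1 (-0.0612) correlated with their own group less well than DMN 2. They are not counted among the doubted arrays. All 11 hepatocyte markers measured (of 12 listed, among them Alb and Ttr) were bright on every array, with array means of 13.36 to 13.84. In whole liver, fewer cells of a type and less RNA per cell cannot be told apart.

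Inmt and Gnmt were lower than in control livers after each of ANIT, DMN and NMF. Cbs was lower after DMN and NMF, and Ahcy after ANIT. Mat2a was higher after ANIT on the brightest of its 3 probe sets, a call that was lost on leaving out any of 8 single arrays. A gene was called when the p-value of limma's moderated test, adjusted by Benjamini-Hochberg over all genes, was under 0.05. In ANIT livers 4 of the 9 genes were called (1 higher, 3 lower), where 16.5% of all genes were called (8.19% higher and 8.29% lower). In DMN livers 3 of 9 were called, all lower, where 10.4% of all genes were called (5.87% higher and 4.53% lower). In NMF livers 3 of 9 were called, all lower, where 7.48% of all genes were called (3.85% higher and 3.63% lower). Without the doubted arrays the counts were 3 for ANIT, 3 for DMN and 3 for NMF, and without the arrays low in GAPDH 5′ signal they were 5, 2 and 4. The median difference of the 9 genes was -0.37 for ANIT, -0.28 for DMN and -0.29 for NMF, against -0.09, -0.06 and -0.05 over all genes. Centring each array on its median turned the split over all genes to 1667 higher and 627 lower for ANIT (1165 and 1179 as deposited), 1047 and 339 for DMN (834 and 644) and 734 and 309 for NMF (547 and 516). It also moved the median difference of all genes in ANIT to 0.04, against -0.09 as deposited. The calls it removed among the 9 genes are named below.

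None of the 9 genes was called after Caerulein, DNP or Roziglitazone, and 0.0% of all genes were called by limma in each of these 3 comparisons. At an unadjusted p under 0.05 there were 2 of the 9 genes and 541 of all genes (3.81%) for Caerulein, 0 and 199 (1.4%) for DNP, and 1 and 1044 (7.34%) for Roziglitazone. With array weights limma called 5 genes for Caerulein, 0 for DNP and 9 for Roziglitazone, and none of them was among the 9.

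**Figure D1:**
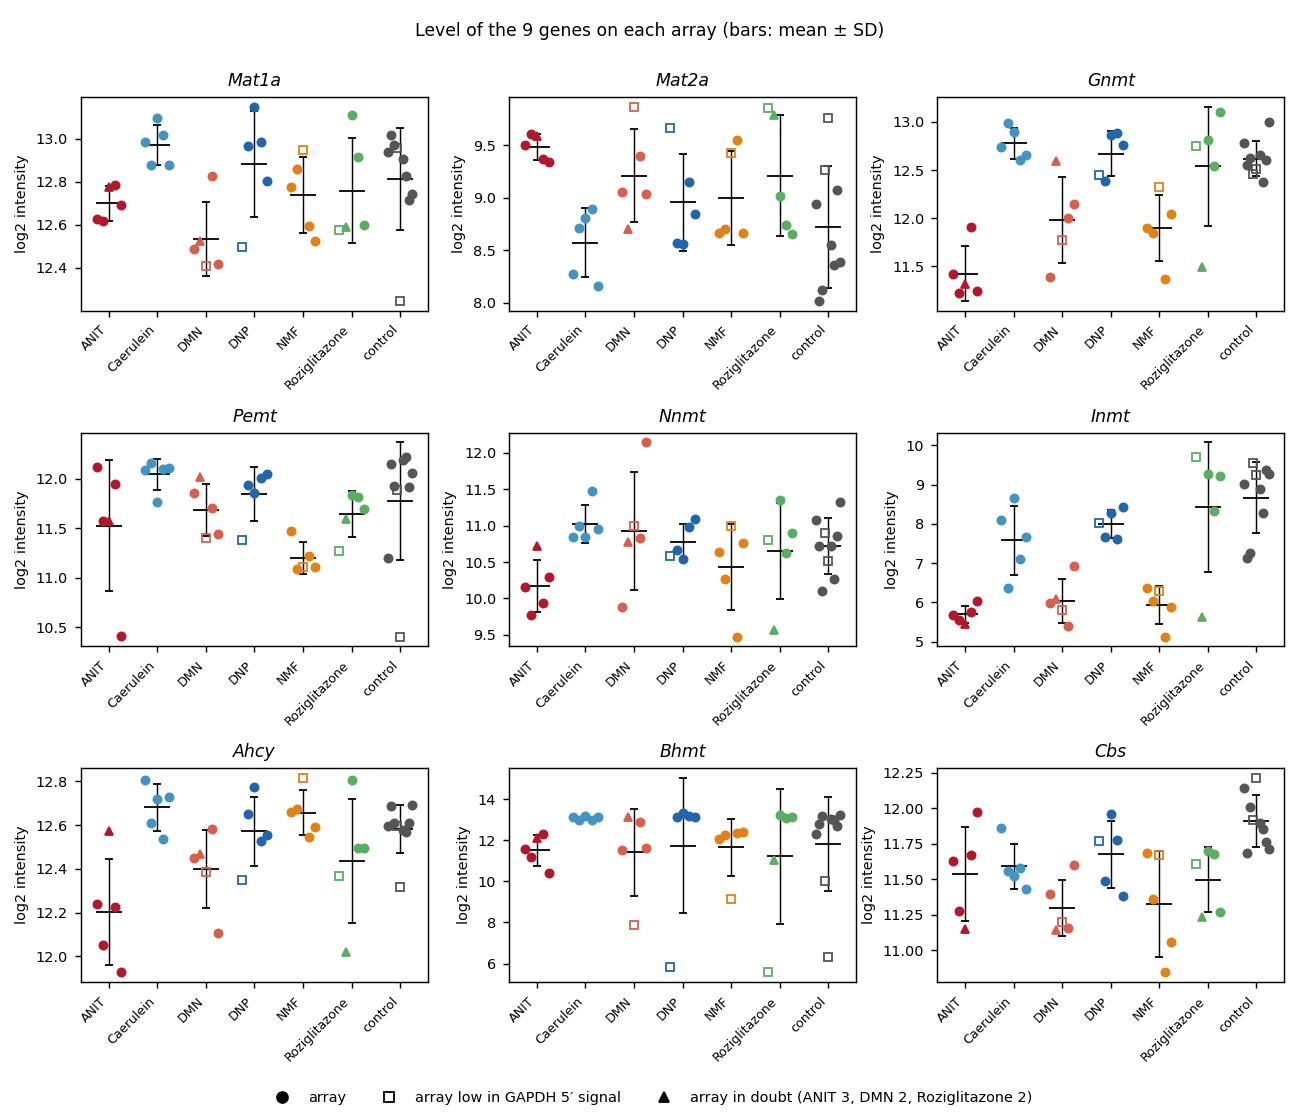
Log2 intensity of the 9 genes on each of the 39 arrays, by treatment group with untreated controls at the right, 1 point per animal and a bar for the mean ± SD. Inmt and Gnmt sit low in the ANIT, DMN and NMF groups and on Roziglitazone 2, and Bhmt is low on the 6 arrays drawn as open squares.

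Inmt encodes indolethylamine N-methyltransferase, which methylates tryptamine and related amines and is also known for methylating selenium and sulfur compounds. It read 5.68, 5.55, 5.46, 5.74 and 6.03 on the 5 ANIT arrays. On the DMN arrays it read 5.97, 6.10, 5.81, 5.41 and 6.93, and on the NMF arrays 6.36, 6.03, 6.29, 5.13 and 5.88. Controls ran from 7.13 to 9.54 with a median of 9.02, so none of the 15 toxicant arrays reached the lowest control.

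Inmt was lower in ANIT livers by a log2 difference of -2.98 ± 0.45 (SE; adjusted p = 1.81e-05). It was lower in DMN livers by -2.63 ± 0.45 (adjusted p = 0.000154) and in NMF livers by -2.73 ± 0.45 (adjusted p = 6.87e-05), all by limma. Over the 14 alternative ways of processing, these differences ran from -2.98 to -2.65 for ANIT, from -2.85 to -2.36 for DMN and from -2.73 to -2.45 for NMF, and each was called under all of them. The group means of 5.69 to 6.04 fell inside the range of the 15 bacterial control probe sets, whose means ran from 3.56 to 6.47; how much of the remaining Inmt level is background was not tested. The size of the decrease is therefore given as a bound. With each toxicant array held at or above 6.47, a level chosen after the values had been seen, Inmt was at least 4.59-fold lower in ANIT livers, at least 4.31-fold lower in DMN livers and at least 4.59-fold lower in NMF livers than in controls. All 5 ANIT and all 5 NMF arrays lay under that level, so their bounds are equal. The bounds allow for background and not for sampling error in the group means.

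The other compounds left Inmt closer to the controls, with wide spread. Caerulein arrays read 8.09, 6.38, 8.66, 7.11 and 7.65, a difference of -1.09 ± 0.45 that was not called (adjusted p = 0.994, unadjusted p = 0.0202). DNP arrays read 8.02, 7.67, 8.29, 7.60 and 8.43, with a difference of -0.67 ± 0.45. Roziglitazone arrays read 9.70, 5.61, 9.28, 8.34 and 9.23. The value of 5.61 is Roziglitazone 2, the array whose whole profile resembled ANIT; the group's Inmt mean was 8.43 ± 1.65 (SD, n = 5) with that array and 9.14 (n = 4) without it, against 8.67 ± 0.91 (n = 9) in controls.

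Gnmt encodes glycine N-methyltransferase, an abundant hepatocyte enzyme that makes sarcosine from glycine and uses up surplus S-adenosylmethionine. ANIT arrays read 11.42, 11.23, 11.31, 11.91 and 11.25. DMN arrays read 11.39, 12.59, 11.77, 12.00 and 12.15, and NMF arrays read 11.90, 11.85, 12.32, 11.37 and 12.05. Controls ran from 12.38 to 13.00 with a median of 12.60. The ANIT and NMF arrays all lay below every control, while 1 DMN array, the doubted DMN 2 at 12.59, lay within the control range.

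Gnmt was 2.29-fold lower in ANIT livers (-1.20 ± 0.19, adjusted p = 3.39e-05 by limma). It was 1.65-fold lower in NMF livers (-0.72 ± 0.19, adjusted p = 0.0128) and 1.56-fold lower in DMN livers (-0.64 ± 0.19, adjusted p = 0.0247). Without the doubted arrays the DMN difference was -0.79 (adjusted p = 0.000568 by limma). The DMN call was lost without DMN 1 (adjusted p = 0.129), without DMN 3 (0.0805), without the 6 arrays low in GAPDH 5′ signal (0.0661) and after median centring (0.0717), and the NMF call was lost without NMF 4 (0.0788). The replicate number as a block ended both the DMN call (0.0942) and the NMF call (0.0659), while ANIT was called under all 14 alternatives and with any 1 array left out. Only controls hold replicate numbers 6 to 9, so a comparison with controls in the block fit rests on controls 1 to 5. Its losses of calls cannot be told apart from those of using fewer controls. Caerulein, DNP and Roziglitazone livers averaged 12.78 ± 0.16, 12.67 ± 0.23 and 12.54 ± 0.62 (SD, n = 5 each), against 12.62 ± 0.19 in controls (n = 9). Roziglitazone 2 again stood low at 11.50 beside 12.54 to 13.10 on the other 4 Roziglitazone arrays.

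Of the 9 genes, Inmt and Gnmt in ANIT, Inmt and Cbs in DMN, and Inmt and Gnmt in NMF had groups that did not overlap with the controls. Across all genes, 5.74%, 2.33% and 3.94% did so for ANIT, DMN and NMF. Inmt, Gnmt and Cbs are the genes lower in at least 2 toxicant groups, so the 250 bases before their annotated starts are given 5′ to 3′ on the strand of the gene. They are RefSeq sequences on GRCr8, and capitals mark a hit of TATAAA or of CCAAT or of AGGTCA on either strand. Inmt lies at chr4:85652756-85653005 (minus strand), Gnmt at chr9:21752032-21752281 (plus strand) and Cbs at chr20:9733926-9734175 (minus strand).
Inmt: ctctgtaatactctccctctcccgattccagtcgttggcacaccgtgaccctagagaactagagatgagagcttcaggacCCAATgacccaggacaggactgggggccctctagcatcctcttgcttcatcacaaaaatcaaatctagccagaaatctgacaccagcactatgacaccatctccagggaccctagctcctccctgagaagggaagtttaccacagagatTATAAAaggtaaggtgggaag
Gnmt: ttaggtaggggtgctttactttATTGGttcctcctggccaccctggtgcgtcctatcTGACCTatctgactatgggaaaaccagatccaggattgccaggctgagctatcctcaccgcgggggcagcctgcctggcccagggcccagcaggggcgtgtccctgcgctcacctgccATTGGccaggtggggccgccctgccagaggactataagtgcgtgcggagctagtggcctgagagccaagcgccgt
Cbs: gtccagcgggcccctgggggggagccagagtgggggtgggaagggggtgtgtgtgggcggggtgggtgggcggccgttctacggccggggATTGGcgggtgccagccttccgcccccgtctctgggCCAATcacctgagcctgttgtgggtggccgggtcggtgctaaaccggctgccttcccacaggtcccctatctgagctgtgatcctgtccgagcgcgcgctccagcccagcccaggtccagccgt

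All 3 windows hold CCAAT on at least 1 strand: once in Inmt, at position -170 from the start, at -228 and -75 in Gnmt, and at -160 and -124 in Cbs. Only Inmt of the 3 has TATAAA (the core of the TATA box), at -21, and only Gnmt has AGGTCA (a nuclear receptor core motif), at -193 on the other strand. RefSeq windows were found for 8 of the 9 genes, the exception being Nnmt. Among these 8, CCAAT was in 6 on either strand, TATAAA was in 3, AGGTCA was in 3, and TGACNNNGC, the core of the antioxidant response element, was in 0; none of these motifs overlapped in the 3 windows printed. Of 33469 windows of the same length, 34.0% held CCAAT, 12.9% TATAAA, 14.1% AGGTCA and 10.1% TGACNNNGC. A hit describes letters in this window and is not a binding site.

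Pemt encodes phosphatidylethanolamine N-methyltransferase, which makes phosphatidylcholine from phosphatidylethanolamine on membranes of the hepatocyte. NMF arrays read 11.47, 11.08, 11.10, 11.22 and 11.11, against 10.41 to 12.22 with a median of 11.92 in controls. The NMF group was tight and low, but 2 controls (control 5 at 10.41 and control 1 at 11.20) lay as low, and the difference of -0.57 ± 0.23 was not called (adjusted p = 0.129 by limma). Without control 5 it was -0.74 (adjusted p = 0.0100), and without all 6 arrays low in GAPDH 5′ signal it was -0.73 (adjusted p = 0.0213), and with array weights -0.78 (adjusted p = 0.00136). Pemt read lower than the rest of its group on all 6 of those arrays, by 0.41 in the median, as did 13.1% of all genes. ANIT arrays read 12.12, 11.57, 11.57, 11.95 and 10.42. The lowest of them is ANIT 5, which with 10.49 had the lowest GAPDH 5′ signal of the other 33 arrays, and control 1, with 11.59, had the next lowest; the part of RNA quality in these Pemt values was not tested. The differences of the remaining groups from controls lay between -0.24 (ANIT) and 0.27 (Caerulein) and none was called.

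Nnmt encodes nicotinamide N-methyltransferase, which removes nicotinamide as 1-methylnicotinamide. ANIT arrays read 10.16, 9.78, 10.71, 9.93 and 10.29, against 10.11 to 11.32 in controls (median 10.73). All 5 ANIT arrays lay below the control mean of 10.72, yet the difference of -0.55 ± 0.27 was not called (adjusted p = 0.157 by limma), except with array weights (-0.70, adjusted p = 0.00963). DMN arrays spread over 9.88, 10.78, 10.99, 10.84 and 12.15, the widest range of any group for this gene and beyond both ends of the controls. The other differences ran from -0.29 (NMF) to 0.30 (Caerulein), with no call.

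Mat1a encodes the methionine adenosyltransferase of the adult liver. ANIT, DMN and NMF arrays averaged 12.70 ± 0.08, 12.53 ± 0.17 and 12.74 ± 0.18 (SD, n = 5 each), against 12.81 ± 0.24 in controls (n = 9). The largest difference of the 6 was -0.28 ± 0.12 in DMN livers (adjusted p = 0.15 by limma), which was called only when control 5, the lowest control at 12.25, was left out (-0.35, adjusted p = 0.0365). Caerulein, DNP and Roziglitazone livers averaged 12.97 ± 0.10, 12.88 ± 0.25 and 12.76 ± 0.24, within 0.16 of controls.

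Mat2a encodes the catalytic subunit of the methionine adenosyltransferase found outside the liver and in growing or dedifferentiated hepatocytes. On the brightest of its 3 probe sets ANIT arrays read 9.50, 9.61, 9.59, 9.37 and 9.35, against 8.02 to 9.77 in controls with a median of 8.55. Only control 5, at 9.77, lay inside or above the ANIT range, with control 4 next at 9.27, and both were low in GAPDH 5′ signal. The difference was 0.76 ± 0.25, or 1.70-fold higher in ANIT livers (adjusted p = 0.0325 by limma).

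The other probe sets of Mat2a did not show this difference. On the dimmest ANIT arrays read 4.69, 5.41, 5.43, 5.97 and 4.90, against 5.54 to 6.56 in controls (median 6.18). With every probe set fitted, its difference was -0.80 ± 0.24 (adjusted p = 0.0247 by limma). That call is opposite to the one on the brightest probe set (adjusted p = 0.0407 in the same fit). Both group means, 5.28 in ANIT livers and 6.08 in controls, lay inside the range of the bacterial control probe sets, so no fold is given for it. Whether it measures Mat2a was not tested. On the remaining probe set the difference was 0.11 ± 0.48 (adjusted p = 0.909), and the mean of the 3 probe sets differed by 0.02 (adjusted p = 0.943 by limma). The call on the brightest probe set was lost when any 1 of ANIT 1, 2, 3 and 5 or control 2, 3, 7 and 9 was left out (adjusted p = 0.0503 to 0.0721), without the doubted arrays (0.0564) and with the replicate block (0.140). Without the 6 arrays low in GAPDH 5′ signal it was 0.99 (adjusted p = 0.000783). In the other 5 groups the difference on the brightest probe set ran from -0.15 ± 0.25 (Caerulein) to 0.49 ± 0.25 (DMN and Roziglitazone), with no call. The DMN difference was called with array weights (0.72, adjusted p = 0.00993 by limma) and without both sets of arrays (0.67, adjusted p = 0.0373).

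Ahcy encodes S-adenosylhomocysteine hydrolase, which splits the product of every methylation and so relieves its inhibition of methyltransferases. ANIT arrays read 12.24, 12.05, 12.57, 12.22 and 11.93, against 12.32 to 12.69 in controls with a median of 12.60. Of the ANIT arrays only the doubted ANIT 3, at 12.57, lay within the control range. The decrease was small, 1.30-fold (-0.38 ± 0.11, adjusted p = 0.0186 by limma), and -0.47 without the doubted arrays (adjusted p = 0.00219). The call was lost without ANIT 2 (0.0614), without ANIT 5 (0.0859), with the replicate block (0.0608) and after median centring (-0.25, adjusted p = 0.213). DMN and NMF livers differed from controls by -0.18 ± 0.11 and 0.07 ± 0.11, and Caerulein, DNP and Roziglitazone livers by 0.10, -0.01 and -0.15, without a call.

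Cbs encodes cystathionine beta-synthase, which commits homocysteine to transsulfuration. DMN arrays read 11.39, 11.14, 11.20, 11.15 and 11.60, and NMF arrays 11.69, 11.36, 11.67, 10.85 and 11.06. Controls ran from 11.68 to 12.21 with a median of 11.90. All DMN arrays lay below every control, and of the NMF arrays only NMF 1 at 11.69 touched the control range.

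Cbs was 1.53-fold lower in DMN livers (-0.61 ± 0.15, adjusted p = 0.00465 by limma) and 1.5-fold lower in NMF livers (-0.58 ± 0.15, adjusted p = 0.00782). The NMF call was lost without NMF 4 (adjusted p = 0.0630), and the DMN call without both the doubted arrays and those low in GAPDH 5′ signal (-0.48, adjusted p = 0.0609). Every other compound group also averaged lower than controls without a call: ANIT by -0.37 ± 0.15 (adjusted p = 0.0749, and 0.0325 without ANIT 5), Caerulein by -0.32 ± 0.15, DNP by -0.23 ± 0.15 and Roziglitazone by -0.41 ± 0.15 (adjusted p = 0.581, unadjusted p = 0.00743). All 5 Caerulein and all 5 Roziglitazone arrays lay below the control mean of 11.91.

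**Figure D2:**
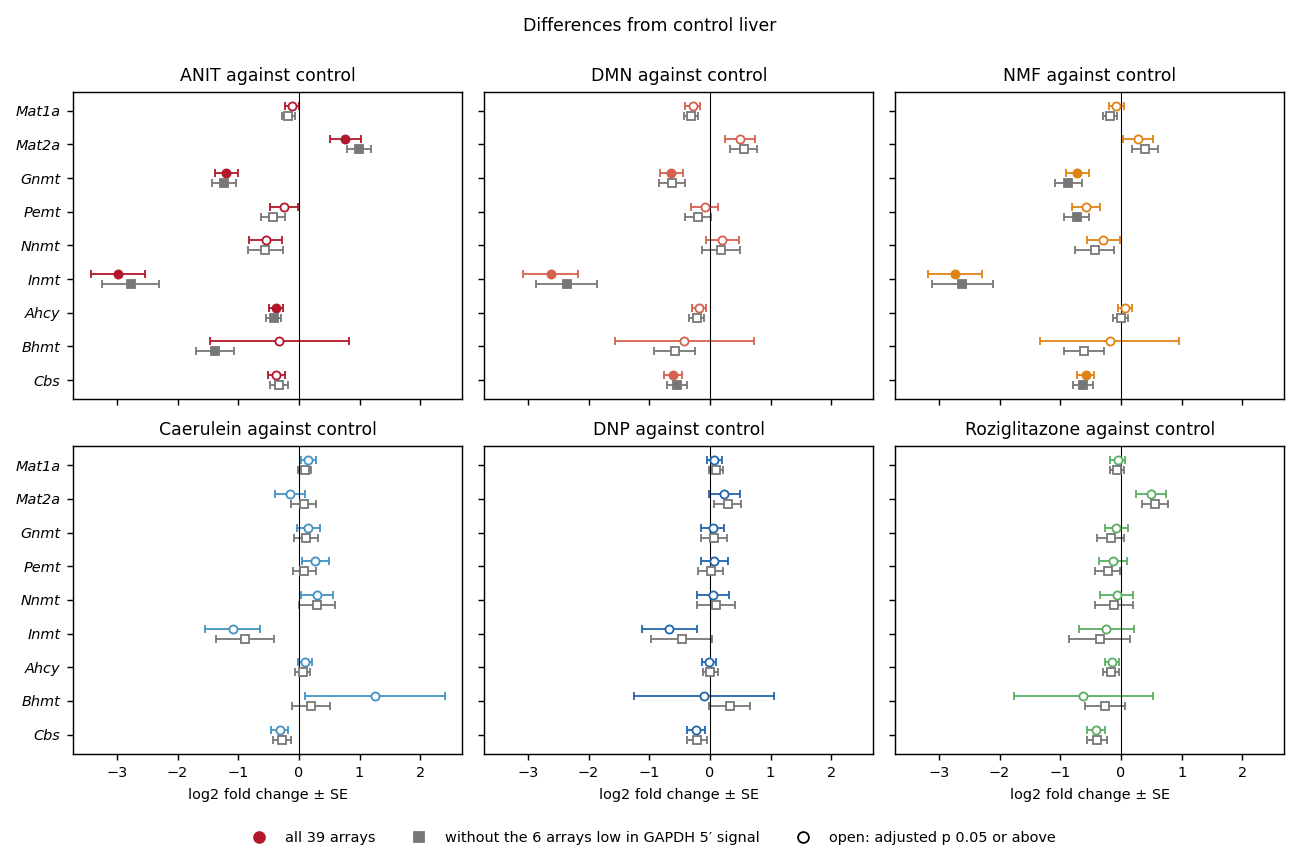
Log2 fold change ± SE of each gene against untreated controls after each compound, with all 39 arrays (circles) and without the 6 arrays low in GAPDH 5′ signal (squares), filled where the adjusted p was under 0.05. Inmt lies between -2.98 and -2.63 in the 3 toxicant panels, and Bhmt in ANIT livers is at -0.33 with all arrays and at -1.38 without the 6.

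Bhmt encodes betaine-homocysteine methyltransferase, which takes a methyl group from betaine to rebuild methionine in liver. With all arrays none of the 6 differences was called, and each had an SE of 1.15, the largest of the 9 genes. The differences were -0.33 for ANIT, 1.26 for Caerulein, -0.42 for DMN, -0.10 for DNP, -0.19 for NMF and -0.62 for Roziglitazone. ANIT arrays read 11.56, 11.18, 12.10, 12.31 and 10.43. DMN arrays read 11.55, 13.13, 7.87, 12.91 and 11.64, and NMF arrays 12.08, 12.26, 9.14, 12.36 and 12.42. Controls ran from 6.33 to 13.21 with a median of 12.80.

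The lowest values belong to the arrays low in GAPDH 5′ signal. Those 6 arrays read Bhmt at 5.58 to 9.997, below all of the other 33 at 10.43 to 13.34. Set against the rest of its own group, the median of the 6 differences was -5.50, and 2 of the 14217 genes, Bhmt among them, went that low. The part of RNA quality in the Bhmt values was not tested. The remaining Mat2a probe set read low on the same 6 arrays (median -1.40), and the brightest read high on all 6 (median 0.81), as did 24.8% of all genes.

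**Figure D3:**
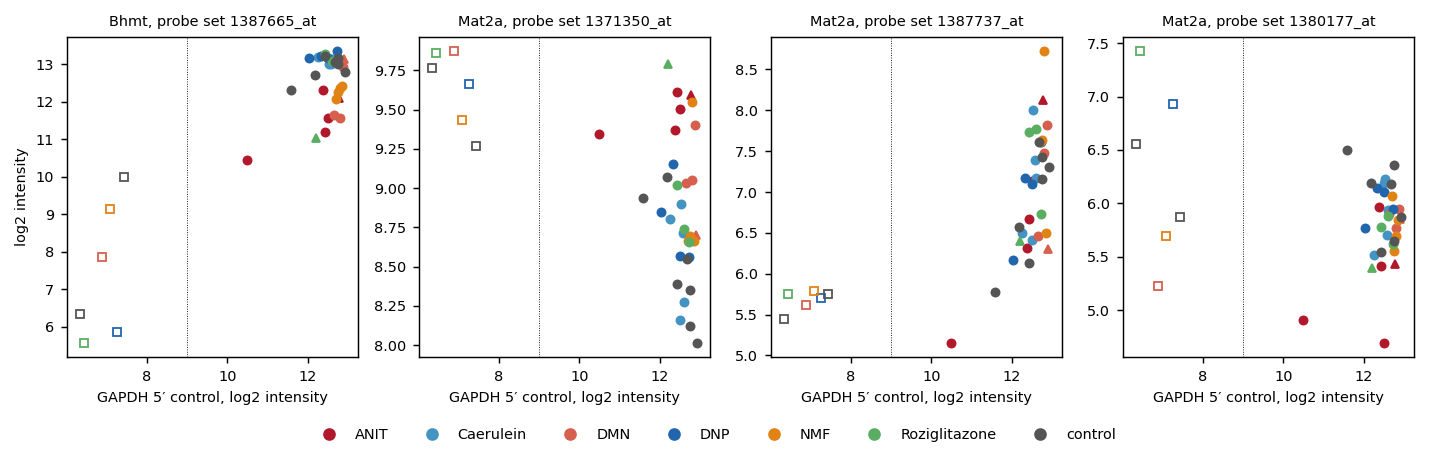
Log2 intensity of the Bhmt probe set and the 3 Mat2a probe sets against the log2 intensity of the GAPDH 5′ control probe set, 1 point per array, with open squares for the 6 arrays left of the dotted line at 9 and triangles for the doubted arrays. The 6 arrays lie at 5.58 to 9.997 for Bhmt, apart from the other 33 at 10.43 to 13.34.

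Without those 6 arrays Bhmt was lower in ANIT livers, averaging 11.52 ± 0.75 (SD, n = 5), against 12.89 ± 0.31 in the remaining 7 controls. The difference was -1.38 ± 0.31 (adjusted p = 0.00198 by limma), and the highest ANIT array, 12.31, lay just under the lowest of these controls, 12.32. A term for low GAPDH 5′ signal in the model gave -1.49 (adjusted p = 0.0207), and leaving out the doubted arrays as well gave -1.52 (adjusted p = 3.43e-05). DMN livers then averaged 12.31 ± 0.83 (n = 4) and were called only when the doubted arrays were also left out (-0.86, adjusted p = 0.0280). NMF livers averaged 12.28 ± 0.15 (n = 4), all 4 below the 7 controls' mean, with a difference of -0.61 ± 0.34 (adjusted p = 0.299). Toxicant livers as 1 group were also lower in Bhmt than the other compounds without the 6 arrays (-0.95, adjusted p = 0.00157). With all arrays that difference was -0.49 ± 0.75 and not called, and of the 14 alternatives the 2 that removed these arrays gave a call, while a term for them did not. Leaving these arrays out was decided after their values had been seen.

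Bhmt2, a close relative of Bhmt that transfers methyl groups from S-methylmethionine, was called in DMN livers. It averaged 11.73 ± 0.89 there (n = 5), against 12.52 ± 0.15 in controls (n = 9), a difference of -0.79 ± 0.20 (adjusted p = 0.00753 by limma) that was -0.39 (adjusted p = 0.0386) without DMN 5 and was not called after median centring (-0.69, adjusted p = 0.0546). Its differences were -0.22 ± 0.20 in ANIT livers and -0.46 ± 0.20 in NMF livers, with no call.

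The 3 toxicants were also set against each other. ANIT and DMN livers differed in 0 of the 9 genes, with 2 at an unadjusted p under 0.05 (Gnmt, -0.56 ± 0.22, and Nnmt, -0.75 ± 0.30), where 2.53% of all genes were called and 16.4% had an unadjusted p that low. Array weights added 1, Ahcy. DMN and NMF livers differed in 0 of 9, with 0 at an unadjusted p under 0.05, where 4.66% of all genes were called and 14.4% had an unadjusted p that low. ANIT and NMF livers differed in 1 of 9, where 6.61% of all genes were called. That gene was Ahcy, with 12.20 ± 0.24 in ANIT livers and 12.66 ± 0.10 in NMF livers (-0.45 ± 0.13, adjusted p = 0.0264 by limma). The Ahcy call was lost without any 1 of ANIT 2, ANIT 5, NMF 1, NMF 2 and NMF 3 (adjusted p = 0.0517 to 0.104), after median centring (0.0961) and in a fit of these 2 groups alone (0.0985).

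In a pair of comparisons vehicle and route were the same. DMN and DNP were both given in water by mouth, at the same 15 mg/kg. Inmt was lower in DMN livers than in DNP livers (-1.96 ± 0.51, adjusted p = 0.0143 by limma), by at least 2.71-fold against the bound of 6.47, and the 2 groups did not overlap, as for 4.7% of all genes. Gnmt was 1.61-fold lower (-0.69 ± 0.22, adjusted p = 0.0442), a call that was lost on leaving out any 1 of DMN 1, 3 and 4 or DNP 3, 4 and 5 (adjusted p = 0.0755 to 0.161). It was also lost with the replicate block (0.0608), after median centring (0.142), in a fit of these 2 groups alone (0.148), with every probe set fitted (0.0587) and without the arrays low in GAPDH 5′ signal (0.0919), so that 9 of the 14 alternatives left it. The 2 calls among 9 genes stand beside 6.89% of all genes. Cbs, which was called in DMN livers against controls, was not called here (-0.38 ± 0.16, adjusted p = 0.166 by limma).

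NMF and Caerulein were both given in saline i.p. Gnmt was 1.84-fold lower in NMF livers (-0.88 ± 0.22, adjusted p = 0.00933 by limma), Pemt 1.80-fold lower (-0.84 ± 0.26, adjusted p = 0.0448) and Inmt lower by at least 2.15-fold (-1.64 ± 0.51, adjusted p = 0.0491), where 5.49% of all genes were called. These 3 genes and Bhmt did not overlap between the groups, and neither did 9.0% of all genes. Leaving out any 1 array of the 2 groups left 1 or 2 of the 3 calls. The Pemt call was lost without each array but Caerulein 3 (adjusted p = 0.0534 to 0.094), and that of Inmt without each array but Caerulein 2 (0.0577 to 0.152). Median centring ended both calls (adjusted p = 0.125 for Pemt and 0.0697 for Inmt by limma). Of the 14 alternatives, 11 left the Pemt call and 9 that of Inmt. Cbs, which was called in NMF livers against controls, was not called against Caerulein (-0.26 ± 0.16, adjusted p = 0.438 by limma).

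Taken as groups of 15, the toxicant livers were lower than the livers of the other 3 compounds in Gnmt and Inmt. Gnmt averaged 11.77 in toxicant livers and 12.66 in the others (-0.90 ± 0.12, adjusted p = 2.01e-06 by limma). Inmt averaged 5.89 in toxicant livers and 8.004 in the others (-2.11 ± 0.29, adjusted p = 2.14e-06). All 15 toxicant arrays lay below the others' mean for both genes, although the groups overlapped, in part through Roziglitazone 2. The other 7 genes were not called, where 19.0% of all genes were. The nearest was Mat1a, at -0.21 ± 0.08 (adjusted p = 0.0585), which was called under 8 of the 14 alternatives. Without the doubted arrays 3 genes were called and without the arrays low in GAPDH 5′ signal 5.

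Put in order of their means, the control group came first for Inmt and Cbs, ANIT first for Mat2a, and Caerulein first for Mat1a, Gnmt, Pemt, Nnmt, Ahcy and Bhmt. ANIT was last for Gnmt, Nnmt, Inmt and Ahcy, DMN for Mat1a and Cbs, NMF for Pemt, Roziglitazone for Bhmt and Caerulein for Mat2a. No 2 neighbouring groups in any of these orders differed by limma, over 6 neighbour pairs a gene. The nearest to a call was the step in Inmt between the DMN and Caerulein means of 6.04 and 7.58 (adjusted p = 0.0629). Several ends of these orders rest on the arrays described above. Without the 6 arrays low in GAPDH 5′ signal, DNP came first for Bhmt (13.22) and Mat1a (12.98), and ANIT was last for Bhmt (11.52), NMF for Cbs (11.24) and the control group for Mat2a (8.49). Without the doubted arrays, Roziglitazone came first for Inmt (9.14) and Gnmt (12.80), DMN was last for Bhmt (10.99) and NMF for Cbs (11.32).

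The other genes of these pathways were taken from 8 lists with 108 names, of which 96 were measured. The lists were chosen with earlier results of these data known, so the shares below describe them and are no independent test. ANIT livers had 9 of the 96 higher and 26 lower (36.5%, against 16.5% of all genes), DMN livers 5 and 18 (24.0%, against 10.4%), and NMF livers 9 and 8 (17.7%, against 7.48%). Caerulein, DNP and Roziglitazone livers had none. The median difference over the 96 genes was -0.20 for ANIT, -0.16 for DMN and 0.07 for NMF, with the medians of all genes given above. After median centring the counts were 10 higher and 14 lower for ANIT, 6 and 12 for DMN, and 10 and 6 for NMF. Without the doubted arrays they were 6 and 28, 6 and 25, and 10 and 10. Of the genes named below, Tyms (5.63) and Phgdh (6.13) had control means inside the range of the bacterial control probe sets, up to 6.47. Smox (5.795 in ANIT livers and 4.77 in controls) and Ahcyl2 (5.97 and 6.36) lay there in both groups. The part of background in these differences was not tested.

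**Figure D4:**
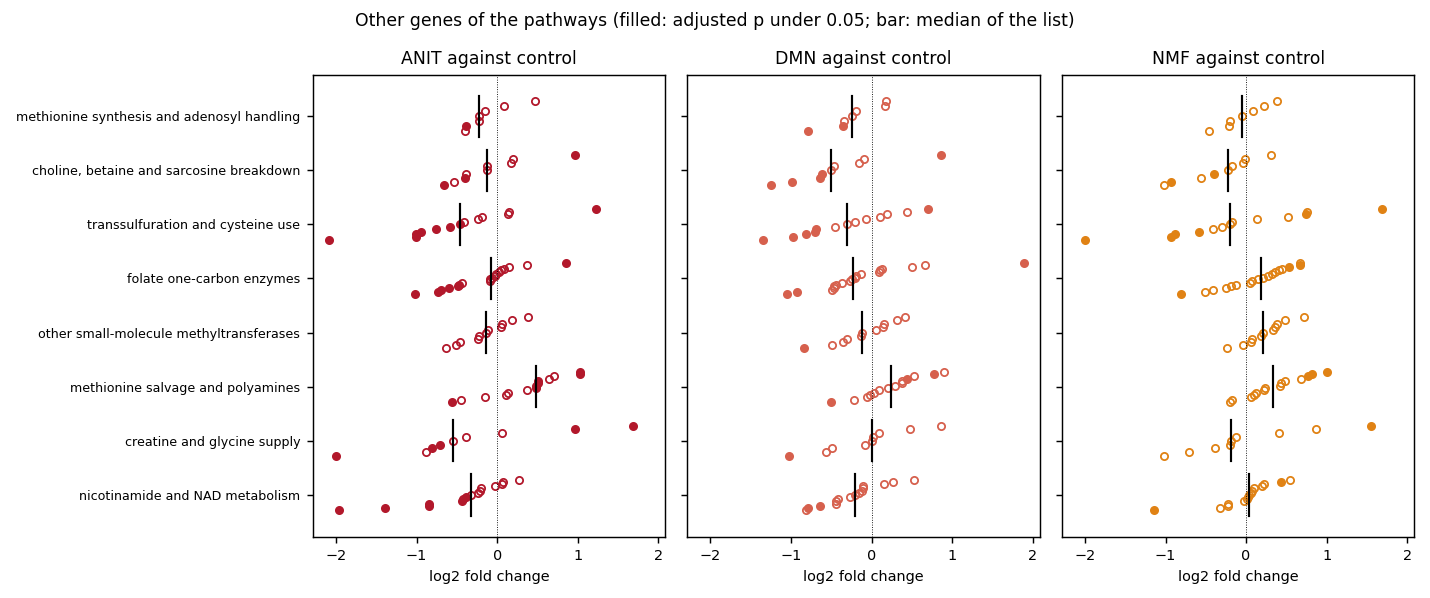
Log2 fold change against untreated controls of each measured gene of the 8 pathway lists in ANIT, DMN and NMF livers, filled where the adjusted p was under 0.05, with a bar at the median of each list. Transsulfuration and cysteine use holds the lowest values in ANIT (-2.09, Ethe1) and NMF livers (-2.001, Csad).

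Downstream of Cbs, the list of transsulfuration and cysteine use had 13 genes, all measured. ANIT livers had 1 higher and 7 lower (median -0.46), DMN livers 1 and 5 (-0.30), and NMF livers 2 and 4 (-0.21). Ethe1, a mitochondrial persulfide dioxygenase, was lower in ANIT livers by 4.25-fold (-2.09 ± 0.26, adjusted p = 1.29e-06 by limma). It was also lower in DMN livers (-1.35 ± 0.26, adjusted p = 0.000521) and in NMF livers (-0.94 ± 0.26, adjusted p = 0.0184), the last lost without NMF 1 or NMF 4 (adjusted p = 0.0560 and 0.0570). Csad, which makes hypotaurine on the way to taurine, was 4.00-fold lower in NMF livers (-2.001 ± 0.23, adjusted p = 1.17e-07), with 9.01 to 9.74 there against 11.11 to 11.73 in controls. It was 1.97-fold lower in DMN livers (-0.98 ± 0.23, adjusted p = 0.00391), where arrays ran from 9.20 to 11.81, beyond both ends of the controls. That difference was -0.67 without DMN 5 (adjusted p = 0.0353) and -1.32 without the doubted DMN 2. Cdo1, the cysteine dioxygenase, was lower in ANIT livers (-1.01 ± 0.17, adjusted p = 9.18e-05), and Suox, sulfite oxidase, in DMN livers (-0.81 ± 0.16, adjusted p = 0.000875). The genes of this list called higher were Gss in all 3 groups and Gclm in NMF livers, both of glutathione synthesis. Gss, glutathione synthetase, was 2.34-fold higher in ANIT livers (1.23 ± 0.18, adjusted p = 1.48e-05), and Gclm, the modifier subunit of glutamate-cysteine ligase, 3.23-fold higher in NMF livers (1.69 ± 0.25, adjusted p = 1.97e-05).

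Betaine and sarcosine link choline to the cycle and Gnmt to folate. Of 9 measured genes of that list, ANIT livers had 1 higher and 2 lower, DMN livers 1 and 4, and NMF livers 0 and 2. Chdh, which oxidises choline towards betaine, was 1.98-fold lower in DMN livers (-0.99 ± 0.17, adjusted p = 0.000171 by limma). Sardh, sarcosine dehydrogenase, was lower in ANIT livers (-0.66 ± 0.14, adjusted p = 0.000842), and Dmgdh, dimethylglycine dehydrogenase, in NMF livers (-0.94 ± 0.18, adjusted p = 0.000730). Slc44a1, a choline transporter, was higher in ANIT livers (0.97 ± 0.22, adjusted p = 0.00230) and in DMN livers (0.86 ± 0.22, adjusted p = 0.00855). Chka, choline kinase, was called lower in DMN livers (-1.25 ± 0.34, adjusted p = 0.0134), but not without DMN 2 (0.0573) or DMN 5 (0.0630). Aldh7a1, a betaine aldehyde dehydrogenase, was called at -0.40 ± 0.11 in both ANIT and NMF livers (adjusted p = 0.0126 and 0.0204), and neither call was left after median centring (0.208 and 0.220).

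Folate enzymes supply the methyl group for the other route from homocysteine to methionine. Of 18 measured, ANIT livers had 1 higher and 6 lower, DMN livers 1 and 2, and NMF livers 2 and 1. Aldh1l1, the cytosolic 10-formyltetrahydrofolate dehydrogenase, was lower in ANIT livers (-0.74 ± 0.18, adjusted p = 0.00387 by limma) and in DMN livers (-1.05 ± 0.18, adjusted p = 0.000142), and higher in NMF livers (0.67 ± 0.18, adjusted p = 0.0139). Its mitochondrial counterpart Aldh1l2 was lower in all 3: by -1.02 ± 0.20 in ANIT, -0.93 ± 0.20 in DMN and -0.80 ± 0.20 in NMF livers (adjusted p = 0.000455, 0.00185 and 0.00761). Tyms, thymidylate synthase, was 3.70-fold higher in DMN livers (1.89 ± 0.29, adjusted p = 3.63e-05). It was also called in ANIT livers (0.85 ± 0.29, adjusted p = 0.0379), where 7 of the 14 arrays could each end the call; without ANIT 3, the doubted array whose profile resembled DMN, the difference was 0.47 (adjusted p = 0.244). Shmt1, a serine hydroxymethyltransferase, was called in NMF livers at 0.54 ± 0.17 (adjusted p = 0.0425), and 10 of the 14 arrays could each end that call when left out.

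Polyamine synthesis draws on decarboxylated S-adenosylmethionine, and methionine salvage returns its remainder. Of 14 measured genes ANIT livers had 4 higher and 1 lower (median 0.49), DMN livers 2 and 1 (0.24), and NMF livers 3 and 0 (0.33). Odc1, ornithine decarboxylase, was higher in all 3 toxicant groups: 1.03 ± 0.18 in ANIT, 0.77 ± 0.18 in DMN and 0.77 ± 0.18 in NMF livers (adjusted p = 0.000171, 0.00506 and 0.00564 by limma). Srm, spermidine synthase, was 2.01-fold higher in NMF livers (1.01 ± 0.22, adjusted p = 0.00200), and Paox, a polyamine oxidase, 1.76-fold higher (0.81 ± 0.15, adjusted p = 0.000254). Adi1, of the salvage pathway, was lower in ANIT livers (-0.57 ± 0.13, adjusted p = 0.00344), and not called after median centring (0.0532). Smox in ANIT livers (1.03 ± 0.36, adjusted p = 0.0474) and Paox and Mri1 in DMN livers (0.44 ± 0.15 and -0.51 ± 0.17, adjusted p = 0.0486 and 0.0488) each lost their call on leaving out any of 8 to 11 single arrays.

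Nnmt draws on nicotinamide, which also feeds NAD, and the liver makes NAD from tryptophan too. Of 15 measured genes of nicotinamide and NAD metabolism, 0 were called higher and 6 lower in ANIT livers (median -0.33), 0 and 2 in DMN livers and 1 and 1 in NMF livers. After median centring 4 were lower in ANIT livers, 0 in DMN livers and 1 in NMF livers. Kynu, kynureninase, was 3.92-fold lower in ANIT livers (-1.97 ± 0.29, adjusted p = 1.33e-05 by limma) and 2.21-fold lower in NMF livers (-1.14 ± 0.29, adjusted p = 0.00950). Kmo, kynurenine monooxygenase, was 2.63-fold lower in ANIT livers (-1.40 ± 0.26, adjusted p = 0.000207), and Afmid, kynurenine formamidase, 1.80-fold lower (-0.85 ± 0.21, adjusted p = 0.00470, and -0.55 without ANIT 3). Kmo and Nadk in DMN livers (-0.79 ± 0.26 and -0.65 ± 0.21, adjusted p = 0.0395 and 0.0422) and Nadsyn1 in NMF livers (0.43 ± 0.14, adjusted p = 0.0479) each lost their call on leaving out any of 7 to 10 single arrays.

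The enzymes that make or use serine and glycine, the acceptor of Gnmt, moved in both directions. Of 9 measured, ANIT livers had 2 higher and 3 lower, DMN livers 0 and 1, and NMF livers 1 and 0. Phgdh, the first enzyme of serine synthesis, was 3.23-fold higher in ANIT livers (1.69 ± 0.34, adjusted p = 0.000675 by limma) and 2.93-fold higher in NMF livers (1.55 ± 0.34, adjusted p = 0.00243). Sds, serine dehydratase, was 4.01-fold lower in ANIT livers (-2.003 ± 0.55, adjusted p = 0.0105), but not called without ANIT 5 (-1.60, adjusted p = 0.0613). Glyat in DMN livers (-1.02 ± 0.28, adjusted p = 0.0141) was not called without DMN 5 (0.107) or after median centring (0.0543), and Psat1 in ANIT livers (0.97 ± 0.33, adjusted p = 0.0394) lost its call with any of 10 single arrays left out.

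Few of the remaining methyltransferases and partners were called. Of 11 other small-molecule methyltransferases measured, among them As3mt, Hnmt and Tpmt, the only call in these 3 comparisons was Mettl7a, lower in DMN livers (-0.84 ± 0.22, adjusted p = 0.00909 by limma). Of 7 genes for methionine synthesis and handling of the adenosyl products, ANIT livers had 1 lower (Ahcyl2, -0.39 ± 0.13, adjusted p = 0.0316) and DMN livers 2 (Bhmt2, above, and the adenosine kinase Adk, -0.36 ± 0.11, adjusted p = 0.0348). The Ahcyl2 call was lost on leaving out any of 5 single arrays and the Adk call on any of 6, and neither was left after median centring (0.159 and 0.261).

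Markers of liver zones and of other cells moved with some of these groups, and their part in the results was not tested. The mean of 9 pericentral hepatocyte markers measured, of 10 listed, ran from 8.56 to 9.32 on ANIT, 8.48 to 9.14 on DMN and 8.18 to 8.50 on NMF arrays, all below the control range of 9.37 to 9.71. The mean of 10 periportal markers ran from 10.93 to 11.45 on ANIT, 11.16 to 11.75 on DMN and 11.41 to 11.90 on NMF arrays, against 11.54 to 11.93 in controls. The mean of 7 neutrophil markers measured, of 10 listed, reached 7.79 on a DMN array and 7.01 on an ANIT array, against 5.91 to 6.39 in controls. The 7 macrophage markers measured averaged 9.66 in ANIT, 9.90 in DMN and 9.20 in NMF livers, against 9.70 in controls. The array means of the 12 stellate cell and fibroblast markers ran from 7.71 to 8.22 in ANIT, 7.53 to 8.03 in DMN and 7.23 to 7.45 in NMF livers, against 7.44 to 8.51 in controls. Those of the 8 endothelial markers measured ran from 7.87 to 8.94, 7.94 to 8.43 and 8.08 to 8.72 in the same 3 groups, against 8.35 to 9.08 in controls. Cholangiocyte, lymphocyte and erythroid markers (7, 9 and 4 measured) averaged 6.45, 6.14 and 8.84 in ANIT livers, 6.52, 6.50 and 9.15 in DMN livers and 6.43, 6.14 and 7.99 in NMF livers, against 6.42, 6.38 and 8.86 in controls.

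Over the 39 arrays the genes most like Inmt were Stac3 (Pearson r = 0.879, Spearman rho = 0.858), Oat (0.877 and 0.802) and Olr59 (0.847 and 0.829). With group means removed, r for these 3 was 0.60, 0.65 and 0.56. Those most like Gnmt were Ghr (0.908 and 0.759), LOC102554026 (0.905 and 0.828) and Ethe1 (0.894 and 0.776), with r of 0.70, 0.77 and 0.72 once group means were removed. Cbs was most like Lrrc32 (0.805), Wdtc1 (0.765) and Pip5k1c (0.751), Ahcy like Qdpr (0.861), Adi1 (0.841) and Ces1e (0.837), and Pemt like Spp2 (0.849), Asgr2 (0.847) and F2 (0.814). Spearman rho for these pairs ran from 0.590 (Ahcy with Adi1) to 0.829 (Pemt with Spp2). On the 33 arrays without low GAPDH 5′ signal rho was 0.460 for Ahcy with Adi1 and 0.571 for Pemt with F2. Mat1a was most like Fbxo21 (0.772), Plg (0.759) and Gulo (0.746), and Nnmt like Sds (0.756), Agxt (0.720) and Il1b (0.697). Mat2a, on its brightest probe set, was most like Usp14 (0.904), Ccnyl1 (0.886) and Mtmr2 (0.880). Bhmt was most like Ndufb8 (r = 0.931, rho = 0.532), Apoe (0.928 and 0.508) and Slc6a13 (0.926 and 0.595), and on the 33 arrays without low GAPDH 5′ signal r was 0.628, 0.264 and 0.484 (rho 0.234, 0.190 and 0.332). These are descriptions across arrays that share treatment groups and RNA quality.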

How the data were processed

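Liver RNA of 39 rats was measured on Affymetrix rat genome arrays, 1 array per sample. The authors deposited 1 table per array with a linear intensity for each of 31099 probe sets (5.4 to 23152.1, array medians 77.8 to 109). RMA and affy are named, without a version, per the submitters' processing notes. RMA usually gives log2 values, so how the deposited values were put on the linear scale is not given in the sources used here.

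Here log2 of the deposited intensity was taken, with no further background correction or normalization. The 57 control probe sets, 436 probe sets with several gene symbols and 9780 without one were left out. Of the 20826 others, 20758 had their symbol updated through the reference tables and 68 kept the old one. For each of 14217 genes the probe set with the highest mean was used (4525 genes had several). One linear model over all 7 groups was fitted with limma 3.58.1 in R 4.3.3, with Benjamini-Hochberg adjustment within each of 12 comparisons and a threshold of 0.05. The code of the fit was run on simulated arrays with independent noise and changes planted in ANIT alone. That run held no degraded or doubted arrays, so it bears on the code only. Precision depends on how many arrays a group holds and on how far a gene's values spread within groups. The labels call the samples biological replicates.

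All 9 genes are reported against controls. In comparisons between compounds those called or nearest to a call are given with values, and in some of them also Cbs or Bhmt. From each pathway list, up to 3 called genes with the largest fold change per compound are named, and per gene the 3 most correlated genes. The members and the gene lists were chosen with earlier results of these data known. The arrays left out in some results were chosen after seeing the data. No sample column of another series was used (0 such columns). Nnmt has no promoter sequence printed.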

Additional observations from a re-analysis of the deposited data

Results flagged for a closer look

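In 77 sets of values (11 probe sets in 7 groups), 12 held an array that stood apart from the rest of its group by Dixon's criterion, which chance alone meets in about 1 of 20 sets. Of the 12, 8 were on arrays low in GAPDH 5′ signal and 0 on the 3 doubted arrays.

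Bhmt gave 4 of them, all low: DNP 1 at 5.85 beside 13.16 to 13.34 on the other DNP arrays, NMF 3 at 9.14 beside 12.08 to 12.42, Roziglitazone 1 at 5.58 beside 11.03 to 13.26, and control 5 at 6.33 beside 9.997 to 13.21. Control 5 was also low in Ahcy (12.32, others 12.57 to 12.69) and Mat1a (12.25, others 12.71 to 13.02). The dimmest Mat2a probe set was low on DMN 3 (5.23, others 5.77 to 5.95) and high on Roziglitazone 1 (7.42, others 5.39 to 5.89). These 8 values are from arrays low in GAPDH 5′ signal, and the part of RNA quality in them was not tested.

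On arrays with an ordinary GAPDH 5′ signal, Gnmt was high on ANIT 4 (11.91, others 11.23 to 11.42), Mat1a was high on DMN 4 (12.83, others 12.41 to 12.53), Pemt was low on Caerulein 3 (11.77, others 12.08 to 12.15) and Nnmt was high on Caerulein 4 (11.47, others 10.84 to 10.99).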

How the results depend on the processing

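Of 1512 values recomputed under other settings, 1447 kept their side of the threshold, 25 lost a call, 40 gained one and 0 called values changed sign. Leaving out 1 array at a time gave 1423 of 1476 on the same side of the threshold, 43 lost and 10 gained. Among the values counted here, 117 that were not called changed sign. Inmt in ANIT, DMN and NMF livers and Gnmt in ANIT livers were called under all 14 alternatives and with any 1 array left out.

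The number of the 9 genes called moved by more than 1.5 times in these cases; smaller moves took ANIT to between 3 and 6, DMN and NMF to between 2 and 4, NMF against Caerulein to 2 or 4 and the toxicants to 3. Median centring gave 0 for ANIT against NMF (1 in the report), 1 for DMN against DNP (2) and 1 for NMF against Caerulein (3). Fitting every probe set on its own gave 1 in both of the last comparisons. Fitting the compared groups alone gave 0 for ANIT against NMF and 1 for DMN against DNP. Array weights gave 1 for ANIT against DMN, 2 for ANIT against NMF and 8 for toxicants against the other compounds (2). Leaving out the arrays low in GAPDH 5′ signal gave 1 for DMN against DNP and 5 for the toxicants; a term for them gave 2 for ANIT against NMF and 4 for the toxicants; leaving out the doubted arrays as well gave 2 and 7. With 1 array left out the counts ran from 2 to 4 for ANIT, 2 to 4 for DMN, 1 to 4 for NMF, 0 to 1 for ANIT against NMF, 1 to 2 for DMN against DNP, 1 to 2 for NMF against Caerulein and 2 to 4 for the toxicants, and stayed at 0 for Caerulein, DNP, Roziglitazone, ANIT against DMN and DMN against NMF. The cause was not tested.

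With the replicate number as a block, 2 genes were called for ANIT (4 in the report), 2 for DMN, 2 for NMF, 1 for DMN against DNP and 3 for the toxicants, where Mat1a was added (adjusted p = 0.0427 by limma). Against controls this fit rests on controls 1 to 5, because no other group holds replicate numbers 6 to 9. In 1 of 21 pairs of groups did all 5 same-numbered arrays correlate above 0.1 in their deviations. Of the 105 same-numbered pairs of arrays taken singly, 58 did so. These values cannot decide whether the numbers pair the samples, because differently numbered arrays were not compared.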
